A study of Mus musculus with 6 samples.

Results

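The genes of MHC class I antigen presentation were taken from the gene count table of 6 NT3 tumors by their symbols. They were H2-K1, H2-D1, B2m, Tap1, Tap2, Tapbp, Psmb8, Psmb9, Nlrc5 and Erap1. All 10 had an entry among the 23358 entries of the table, and all 10 passed the filter on low counts that left 16415 genes for testing.

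RNA was sequenced from 6 spontaneous soft tissue tumors, each from a different female mouse. NT3 is a form of the kinase NIK without its TRAF3-binding domain, placed in the ROSA26 locus behind a loxP-flanked stop that Cre excises. Every tumor came from a mouse with this allele and a Cre driver. The paper reports the excised allele in tumors of both lines, but the Osx-Cre;NT3 tumors it examined for this were facial or perineal. Excision in the sequenced tumors was not tested here. Tumors 13, 18 and 25 came from the trunk of Osx-Cre;NT3 mice, in which an Osterix promoter drives a doxycycline-repressible Cre, and appeared after 150, 168 and 115 days. In FSP1-Cre;NT3 mice, in which the S100a4 promoter drives Cre in fibroblasts and, as documented, in myeloid cells, tumors 27 and 36 were perineal and tumor 29 was from the trunk, with latencies of 101, 52 and 72 days. Per the methods, NT3 mice were C57Bl/6J, the Osx-Cre males were of mixed C57Bl/6J and CD1 background, doxycycline chow was given until weaning in that line, and the FSP1-Cre males were FVB/n. Line, strain background, latency and average RNA integrity changed together and cannot be told apart, and both perineal tumors belonged to 1 line. The paper gives a lower average RNA integrity score for Osx-Cre;NT3 than for FSP1-Cre;NT3 tumors. H2 genes differ in sequence between mouse strains, and the reads were aligned to the C57BL/6J genome, so strain alleles and line cannot be told apart in their counts either.

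Class I molecules show peptides from inside the cell to CD8 T cells and NK cells. Proteasomes cut proteins into peptides, the TAP transporter carries these into the endoplasmic reticulum, tapasin bridges TAP to the empty class I molecule, ERAP1 trims the peptide ends, and the heavy chain travels to the surface with beta-2 microglobulin. Interferon-gamma raises most genes of the pathway through IRF1 and the transactivator NLRC5, and NF-κB, the pathway that NIK activates, can bind the promoters of heavy chain genes and of B2m.

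The promoters of the heavy chain genes and of B2m are shown because NIK acts on NF-κB. These 3 genes also moved together across the tumors as counted, at pairwise r of 0.91 to 0.94. With the gene length trend described below removed, r was 0.19 to 0.66. Joint movement was not particular to them, since Psmb8 and Psmb9, whose windows held no match, had an r of 0.99 as counted. RefSeq promoter windows of the build GRCm38.p6, of 300 bases each, were given for 8 of the 10 genes, with Tap2 and Nlrc5 unmatched. Of each, the 250 bases before the start site are printed 5′ to 3′ on the strand of the gene, and capitals mark matches to the NF-κB consensus on either strand. The windows are chr17:34000348-34000597 on the minus strand for H2-K1, chr17:35262844-35263093 on the plus strand for H2-D1 and chr2:122147437-122147686 on the plus strand for B2m.
H2-K1: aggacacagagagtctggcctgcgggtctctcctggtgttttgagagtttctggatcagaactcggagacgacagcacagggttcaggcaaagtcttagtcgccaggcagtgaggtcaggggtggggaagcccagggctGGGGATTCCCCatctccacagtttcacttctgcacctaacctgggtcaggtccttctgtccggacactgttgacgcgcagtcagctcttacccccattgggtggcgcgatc
H2-D1: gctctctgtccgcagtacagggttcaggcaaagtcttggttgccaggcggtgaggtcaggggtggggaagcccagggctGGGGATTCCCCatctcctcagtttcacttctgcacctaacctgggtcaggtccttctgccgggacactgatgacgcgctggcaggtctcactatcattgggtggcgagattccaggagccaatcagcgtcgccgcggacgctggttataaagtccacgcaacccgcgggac
B2m: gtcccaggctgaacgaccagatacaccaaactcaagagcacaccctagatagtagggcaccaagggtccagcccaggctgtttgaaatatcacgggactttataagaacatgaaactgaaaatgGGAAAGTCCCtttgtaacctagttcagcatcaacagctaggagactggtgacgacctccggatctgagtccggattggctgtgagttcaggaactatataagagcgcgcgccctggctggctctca

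The consensus was found in these 3 of the 8 windows searched, against 8.46% of all 32851 promoter windows. H2-K1 and H2-D1 held the same palindrome, GGGGATTCCCC, which begins 111 bases before the start in H2-K1 and 171 bases before it in H2-D1. From a second H2-K1 start it begins 125 bases before. The letters were read from the H2-K1 window and then searched for, so that match was fixed in advance. The share of all windows with the palindrome, 0.0304%, includes the H2-K1 and H2-D1 windows and is not a test. The 11 letters of the palindrome contain overlapping matches to the consensus on both strands, which were counted once per window. Without gaps, and shifted by 60 bases, the H2-K1 and H2-D1 stretches were identical at 166 of 190 aligned positions. In B2m the match begins 126 bases before the start and lies beside a match to the interferon-stimulated response element, 2 copies of GAAA that are 2 bases apart, which begins 139 bases before it. That element was found on either strand in 3.44% of windows, among the members in B2m and Erap1.

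Tap1 and Psmb9 are neighbours on chromosome 17 and are transcribed away from each other, and the stretch between their start sites, chr17:34187331-34187555, is 225 bases long. It is shown because 1 stretch serves as upstream sequence of a transporter and a proteasome gene. Their log2 levels had a Pearson r of -0.52 over the 6 tumors, and of -0.40 with the gene length trend described below removed. The stretch is printed on the strand of Tap1, with capitals for the Y box, ATTGG or CCAAT on the other strand. That motif was held by 37.4% of all windows and by those of 6 of the 8 members.
Tap1 and Psmb9: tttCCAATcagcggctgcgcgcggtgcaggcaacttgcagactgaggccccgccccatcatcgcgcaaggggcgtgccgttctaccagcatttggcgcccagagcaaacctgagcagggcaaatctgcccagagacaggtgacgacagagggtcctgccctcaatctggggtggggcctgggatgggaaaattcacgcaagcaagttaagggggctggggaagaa

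The authors deposited counts per gene and length-scaled values (RPKM, reads per kilobase of gene relative to library size). Total counts were 163297772 in tumor 18 and ran from 51824408 to 75435102 in the others. All counts were even, as given under the processing, and the cause was not tested. At such totals the number of tumors, not depth, limits the precision of genes at these levels. Below, CPM, the counts of a gene relative to the library size, are scaled between tumors by edgeR's TMM method, and RPKM, which corrects for gene length, is used where genes are compared with each other. In tumors 13 and 18 short genes were high and long genes low, and in tumors 25 and 27 the reverse. Taking all tested genes in 10 equal classes of length, the shortest class had a median deviation of log2 CPM from the gene means that was not the same in every tumor. It deviated by 0.45, 0.60, -0.43 and -0.32 in tumors 13, 18, 25 and 27, and by -0.12 and -0.18 in tumors 29 and 36. Fold changes with this trend removed are given for the 10 genes. In these bulk samples, fewer cells of a type and less RNA per cell cannot be told apart.

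Of 50 markers in 12 cell type lists, 49 were found and none was at 0 in any tumor. The basal keratinocyte markers Krt5, Krt14, Krt15 and Trp63 summed to 5353 to 13990.5 CPM and the fibroblast markers to 3144 to 3881 CPM in Osx-Cre;NT3 and 6629 to 9371 CPM in FSP1-Cre;NT3 tumors, so both keratinocyte and mesenchymal transcripts were present in tumors labelled as soft tissue. T cell markers summed to 53.5 to 164 CPM in Osx-Cre;NT3 and 61.2 to 117 CPM in FSP1-Cre;NT3 tumors, NK cell markers to 6.45 to 33.9 and 10.1 to 19.4 CPM, and macrophage markers to 459 to 796 and 376 to 617 CPM. Tumor 18 was highest in all 3 of these sums. Class II and dendritic cell markers summed to 1607 to 5076 and 1940.2 to 4474 CPM, B cell markers to 6.87 to 12.7 and 9.004 to 15.9 CPM, and neutrophil markers to 11.7 to 52.2 and 44.3 to 448 CPM. Endothelial markers summed to 87.1 to 210.2 CPM in Osx-Cre;NT3 and 223 to 334 CPM in FSP1-Cre;NT3 tumors, and simple epithelium, smooth muscle and adipocyte markers, at 392 to 3983, 225 to 2069 and 2.32 to 123 CPM, were each highest in tumor 36. The part of cell composition in the class I values was not tested.

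On the RPKM scale the light chain was the most abundant of the 10 transcripts. B2m, which encodes beta-2 microglobulin, averaged 2941 ± 714 RPKM (SD, n = 6) and ranked 6 of 23358 entries by mean level. The heavy chain genes followed, H2-K1 at 1076 ± 186 RPKM and H2-D1 at 692 ± 107 RPKM. The immunoproteasome genes Psmb8 and Psmb9 averaged 134 ± 42.2 and 119 ± 39.3 RPKM. The genes of the peptide loading complex lay lower, Tap1 at 68.7 ± 11.4, Tapbp at 62.0 ± 11.99 and Tap2 at 48.2 ± 11.4 RPKM. Erap1 averaged 20.8 ± 2.79 RPKM and Nlrc5 13.4 ± 5.56 RPKM.

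**Figure D1:**
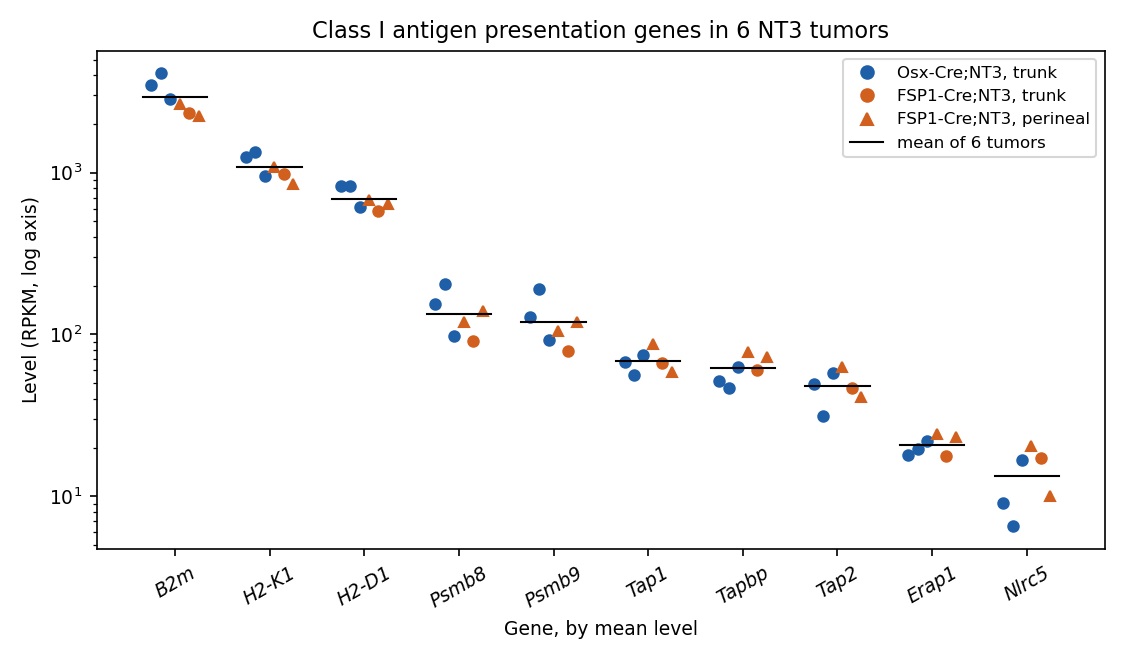
RPKM of each of the 10 class I antigen presentation genes in the 6 tumors, on a log axis, with genes ordered by mean level. Blue points are Osx-Cre;NT3 and orange points FSP1-Cre;NT3 tumors, triangles are perineal, and black bars are means of 6 tumors. Levels fall from 2941 RPKM for B2m to 13.4 RPKM for Nlrc5, and for B2m the blue points all lie above the orange ones.

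Of the 9 pairs of neighbours in this order, 4 had ranges that did not overlap between the 2 genes over the 6 tumors, namely B2m and H2-K1, H2-K1 and H2-D1, H2-D1 and Psmb8, and Tap2 and Erap1. The other 5 pairs overlapped. Within tumors the order was tighter, because Psmb8 exceeded Psmb9 and Psmb9 exceeded Tap1 in 6 of 6 tumors, and Tap1 exceeded Tapbp in 5 of 6. The ratio of Psmb8 to Psmb9 in RPKM was 1.13 ± 0.0529 (SD, n = 6), and that of H2-K1 to H2-D1 was 1.56 ± 0.129. B2m stood above the sum of H2-K1 and H2-D1 in every tumor, by ratios of 1.674, 1.899 and 1.814 in tumors 13, 18 and 25 and of 1.503, 1.504 and 1.509 in tumors 27, 29 and 36. B2m is the shorter gene, at 858 bases beside 1646 and 1736, so these ratios carry the length trend. With it removed, B2m deviated from its mean by -0.06, 0.04 and 0.34 in tumors 13, 18 and 25. H2-K1 deviated there by 0.14, 0.17 and -0.01, and H2-D1 by 0.19, 0.13 and -0.03. The ratio itself was not computed with the trend removed.

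H2-K1 and H2-D1 encode the classical heavy chains, which bind the peptide. H2-K1 (chr17:33996012-34000333) stood at 2731, 2905 and 1919 CPM in tumors 13, 18 and 25, and at 2031, 2030.4 and 1735 CPM in tumors 27, 29 and 36. Tumors 13 and 18 were high and tumor 25 fell among the FSP1-Cre;NT3 tumors, so that the lines overlapped. H2-D1 (chr17:35263094-35267497) stood at 1898, 1890.3 and 1308 CPM in the Osx-Cre;NT3 tumors and at 1328, 1254 and 1375 CPM in the FSP1-Cre;NT3 tumors, in the same order as above. Again tumors 13 and 18 were apart from the other 4, and tumor 25 was below 2 of the 3 FSP1-Cre;NT3 tumors. Line means were 2518 ± 526 and 1932 ± 171 CPM for H2-K1, a log2 fold change (FSP1-Cre;NT3 over Osx-Cre;NT3) of -0.38 ± 0.26 (SE, adjusted p = 0.54, edgeR with Benjamini-Hochberg adjustment), and 1699 ± 338 and 1319 ± 61.2 CPM for H2-D1, with -0.37 ± 0.24 and an adjusted p of 0.53 in the same edgeR fit. Both were -0.21 with the length trend removed. Of the 50-base windows of the longest coding transcript, 8.79% in H2-K1 and 14.3% in H2-D1 also occur in transcripts of other genes, and of the 100-base windows 0% and 4.64%, so these counts are uncertain where reads fall there.

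B2m (chr2:122147687-122153082) stood at 3953, 4649.5 and 2987 CPM in tumors 13, 18 and 25 and at 2577, 2524 and 2389.5 CPM in tumors 27, 29 and 36. All 3 FSP1-Cre;NT3 tumors were below all 3 Osx-Cre;NT3 tumors. B2m was the 1 of the 10 genes whose lines did not overlap, which was the case in 17% of all tested genes, in 7.97% with FSP1-Cre;NT3 lower and in 9.03% with it higher. The log2 fold change was -0.63 ± 0.26 (SE, unadjusted p = 0.048, adjusted p = 0.46, edgeR with Benjamini-Hochberg adjustment), between line means of 3863 ± 835 and 2497 ± 96.7 CPM. With the gene length trend removed it was -0.23 ± 0.19 with an adjusted p of 0.60 in edgeR, and tumor 25 was then the highest of the 6 in B2m.

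Tap1 and Tap2 encode the subunits of the transporter that moves peptides into the endoplasmic reticulum. Tap1 (chr17:34187556-34197225) stood at 267, 220.1 and 271 CPM in tumors 13, 18 and 25 and at 293, 246 and 215 CPM in tumors 27, 29 and 36. Tap2 (chr17:34204479-34216321) stood at 165, 103 and 176 CPM and at 178, 145 and 127 CPM in the same order. Tumors 18 and 36 were lowest for both genes and tumor 27 highest for both, and the lines overlapped throughout. The log2 fold change between lines was -0.01 ± 0.20 for Tap1 and 0.02 ± 0.26 for Tap2 (SE, adjusted p = 0.99 and 0.98, edgeR with Benjamini-Hochberg adjustment), with 95% intervals from -0.49 to 0.47 and from -0.60 to 0.64. They were -0.04 and 0.05 with the length trend removed. In RPKM Tap1 exceeded Tap2 by 1.45 ± 0.176 times (SD, n = 6).

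Tapbp encodes tapasin, which holds the empty heavy chain next to the transporter. It (chr17:33919478-33929290) stood at 189.6, 169 and 212 CPM in tumors 13, 18 and 25 and at 243, 208 and 247 CPM in tumors 27, 29 and 36. The perineal tumors 27 and 36 were the highest, and tumor 29 lay below tumor 25. The log2 fold change between lines was 0.29 ± 0.18 (SE, adjusted p = 0.52, edgeR with Benjamini-Hochberg adjustment), and was also 0.29 with the length trend removed. Among 50-base windows, 12.6% of the Tap2 and 21.0% of the Tapbp transcript recur in transcripts of other genes.

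Psmb8 and Psmb9 encode catalytic subunits that replace Psmb5 and Psmb6 in the immunoproteasome. Psmb8 (chr17:34198195-34201454) stood at 249.5, 331 and 147 CPM in tumors 13, 18 and 25 and at 165, 139 and 212 CPM in tumors 27, 29 and 36. Psmb9 (chr17:34182099-34187330) stood at 138, 203 and 90.9 CPM and at 95.4, 80.0 and 119 CPM in the same order. Both genes ranked the tumors alike, with tumor 18 highest, tumors 13 and 36 next, and tumors 25 and 29 lowest, and their log2 levels had a Pearson r of 0.99 over the 6 tumors. The log2 fold change between lines was -0.49 ± 0.33 for Psmb8 and -0.55 ± 0.32 for Psmb9 (SE, adjusted p = 0.54 and 0.49, edgeR with Benjamini-Hochberg adjustment), and -0.16 and -0.07 with the length trend removed.

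The 3 inducible catalytic subunits were also set against the constitutive subunits they replace, as RPKM ratios within each tumor, which do not depend on scaling between tumors. Psmb8 over Psmb5 was 0.885, 1.14 and 0.991 in the Osx-Cre;NT3 tumors 13, 18 and 25, and for tumors 27, 29 and 36 it was 1.14, 0.923 and 1.28. Psmb9 over Psmb6 was 0.667, 0.892 and 0.864 and then 0.976, 0.758 and 1.14. The lines overlapped in both ratios. Psmb10 over Psmb7 was 0.326, 0.328 and 0.327 in the Osx-Cre;NT3 tumors, 0.345 in the FSP1-Cre;NT3 trunk tumor 29, and 0.473 and 0.693 in the perineal tumors 27 and 36. For this ratio the lines did not overlap, and neither did the sites. A higher ratio need not mean more of the inducible subunit. Between lines the log2 fold changes of Psmb8, Psmb9 and Psmb10 were all below 0, as were those of all 14 constitutive core genes. The difference in mean log2 ratio, FSP1-Cre;NT3 minus Osx-Cre;NT3, was 0.15 for Psmb8 (exact p = 0.40), 0.24 for Psmb9 (exact p = 0.40) and 0.56 for Psmb10 (exact p = 0.10, n = 3 per line), by two-sided exact permutation tests over 20 assignments. Adjusted over the 3 ratios these exact p-values were 0.40, 0.40 and 0.30, and 0.1 is the smallest that this design allows. With the length trend removed the differences were 0.030 for Psmb8 (exact p = 1.0), 0.32 for Psmb9 (exact p = 0.30) and 0.47 for Psmb10 (exact p = 0.30), and the lines then overlapped in the Psmb10 ratio too, at log2 values of -1.70 to -1.48 in Osx-Cre;NT3 and -1.56 to -0.56 in FSP1-Cre;NT3 tumors.

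**Figure D2:**
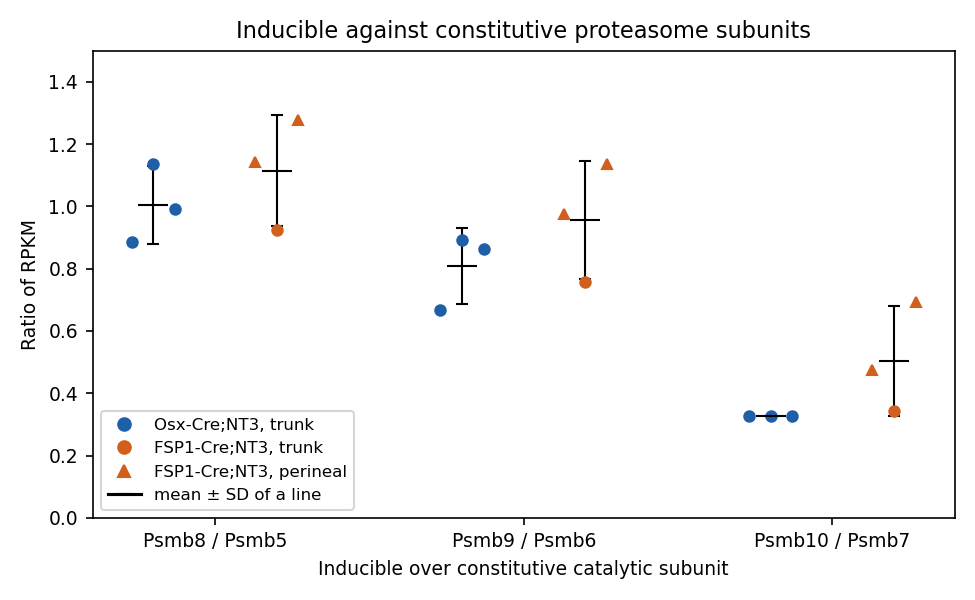
Ratio of the RPKM of each inducible catalytic subunit to that of the constitutive subunit it replaces, in each tumor, with the mean ± SD of each line (n = 3). Blue points are Osx-Cre;NT3 and orange points FSP1-Cre;NT3 tumors, and triangles are perineal. Psmb10 over Psmb7 is 0.326 to 0.328 in the 3 Osx-Cre;NT3 tumors and reaches 0.473 and 0.693 in the perineal tumors.

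Nlrc5 encodes a transactivator that assembles on the promoters of class I genes. It (chr8:94472763-94527272) stood at 83.6, 59.8 and 144 CPM in tumors 13, 18 and 25 and at 161, 150.4 and 86.8 CPM in tumors 27, 29 and 36. Tumors 25, 27 and 29 were high and tumors 13, 18 and 36 low, a split that crossed both lines. Nlrc5 had the widest spread of the 10 genes, as counted and with the trend removed, with a log2 fold change between lines of 0.47 ± 0.38 (SE, adjusted p = 0.61, edgeR with Benjamini-Hochberg adjustment) and of 0.23 with the length trend removed. The tumors with high Nlrc5 were those with low Psmb8 and Psmb9, at Pearson r = -0.96 and -0.95 over 6 tumors, and -0.90 and -0.75 with the length trend removed. These values are a description, and the 6 points share their libraries and the length trend.

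Erap1, the aminopeptidase that trims peptides to the length that fits the class I groove, varied least as counted, with an SD of log2 CPM of 0.14 over the 6 tumors. With the length trend removed its SD was 0.17, above those of H2-D1, Tap1 and H2-K1, at 0.15 each. It (chr13:74639872-74691875) stood at 96.4, 104 and 109 CPM in tumors 13, 18 and 25 and at 111, 88.96 and 115 CPM in tumors 27, 29 and 36. The perineal tumors 27 and 36 were the highest and the FSP1-Cre;NT3 trunk tumor 29 the lowest, so that the lines overlapped. The log2 fold change between lines was 0.03 ± 0.18 (SE, adjusted p = 0.95, edgeR with Benjamini-Hochberg adjustment), and -0.11 with the length trend removed. The transcript shares 14.03% of its 50-base windows with the overlapping gene Cast, and the strand setting of the counting is not given in the sources used here.

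Across tumors, then, the 10 genes fell into those above their means in both tumors 13 and 18 (H2-K1, H2-D1, B2m, Psmb8 and Psmb9) and the rest. H2-K1, H2-D1 and B2m had pairwise r of 0.91 to 0.94 over 6 tumors, and r of 0.19 to 0.66 with the length trend removed. The 5 genes high in tumors 13 and 18 were also the 5 shortest, from 806 bases for Psmb9 to 1736 bases for H2-D1, and the others ran from 2490 bases for Tap2 to 6945 bases for Nlrc5. Across the 10 genes, deviation from the gene mean correlated with log2 length at r = -0.87 and -0.90 in tumors 13 and 18, and at 0.81, 0.92 and 0.84 in tumors 25, 27 and 29, beside -0.26, -0.38, 0.30, 0.27 and 0.083 across all tested genes. In tumor 36 it was -0.0019 for the 10 genes and 0.041 for all. These are correlations across genes, which are not independent replicates. The median SD of log2 CPM over the 6 tumors was 0.30 for the 10 genes and 0.47 for all tested genes, and 0.20 and 0.40 with the length trend removed.

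**Figure D3:**
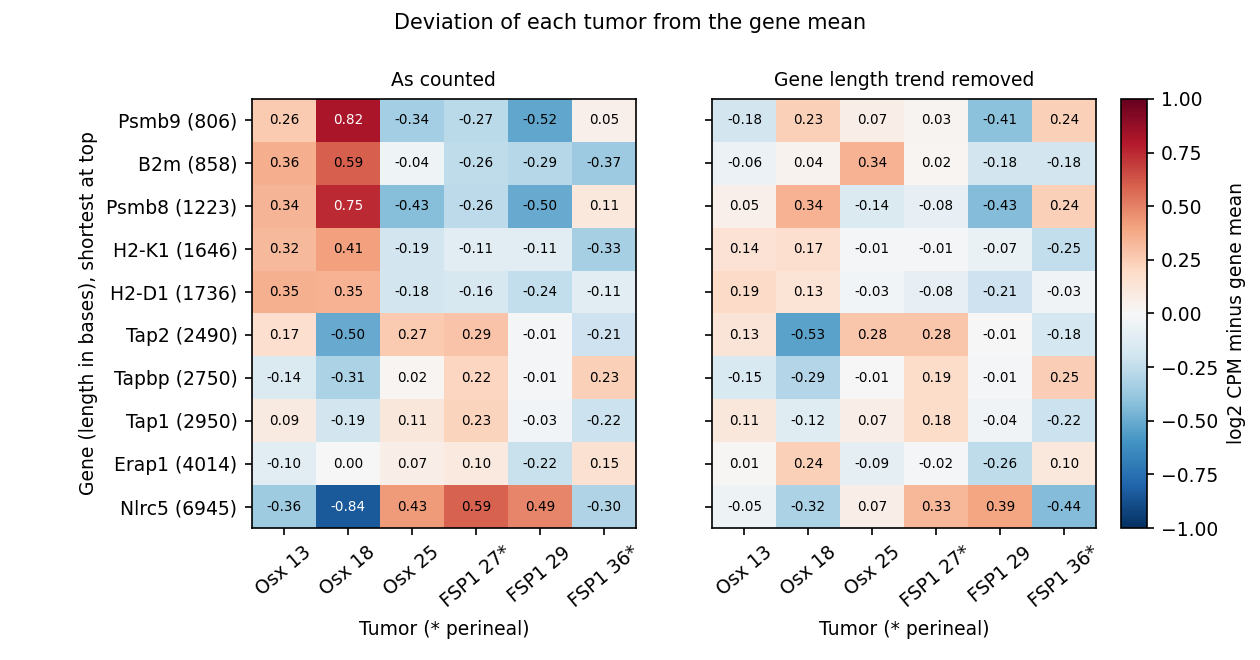
Log2 CPM of each gene in each tumor minus the mean of the gene, as counted (left) and with the trend over gene length removed (right), with genes from shortest to longest and an asterisk for perineal tumors. On the left the 5 shortest genes are above their means in tumors 13 and 18 (0.26 to 0.82), and Nlrc5 is below its mean there (-0.36 and -0.84). On the right the values lie between -0.18 and 0.19 in tumor 13 and between -0.53 (Tap2) and 0.34 (Psmb8) in tumor 18.

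**Figure D4:**
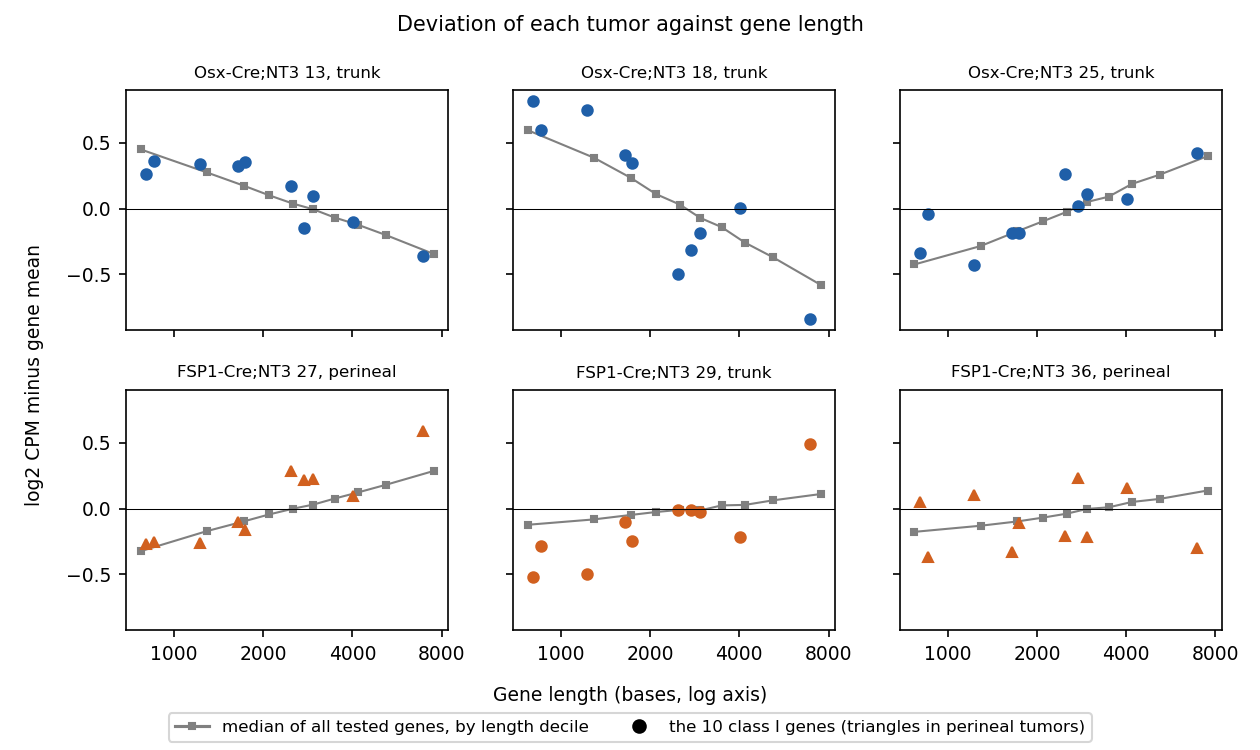
Deviation of log2 CPM from the gene mean against gene length (log axis), 1 panel per tumor. Grey squares are medians of all tested genes in 10 classes of gene length, and coloured points are the 10 class I genes, with triangles in perineal tumors. In tumor 18 the grey line falls from 0.60 to -0.58 and the class I genes from 0.82 for Psmb9 to -0.84 for Nlrc5, and in tumor 25 the grey line rises from -0.43 to 0.40.

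Between the lines, none of the 10 genes changed by edgeR at an adjusted p under 0.05, and 0 of all 16415 genes did, a background of 0%. In simulated data edgeR missed most 4-fold changes between lines and between sites, as given under the processing. A gene that did not pass is therefore not shown to be unchanged. For the 10 genes as counted, the 95% intervals of the log2 fold change from edgeR ran from -1.32 (Psmb9) to 1.39 (Nlrc5) between lines. Between sites they ran from -1.38 (B2m) to 1.21 (Nlrc5). A 4-fold change lay outside all of these intervals, and smaller changes within them were not excluded. At an unadjusted p under 0.05 there was 1 of 10 between lines, B2m, against 10.8% of all genes. DESeq2 called 420 genes, 2.72% of those it gave an adjusted p, and also 0 of the 10, and without tumor 36 it called 196 genes. The log2 fold change was below 0 in 6 of the 10 and above 0 in 4, with a median of -0.19 beside 0.01 for all genes, and with the length trend removed the medians were -0.09 and -0.01. Without tumor 25, 25.2% of all genes and 6 of the 10 reached an unadjusted p under 0.05, with B2m, H2-K1, H2-D1, Psmb8 and Psmb9 lower and Nlrc5 higher in FSP1-Cre;NT3 tumors. The smallest adjusted p among them was 0.082 (edgeR), for B2m at a log2 fold change of -0.84, and 0 genes passed. The genes lower without tumor 25 were the shortest of the 10 members, and Nlrc5 was the longest. The Osx-Cre;NT3 tumors left, 13 and 18, were those in which short genes were high. This setting was not run with the length trend removed.

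**Figure D5:**
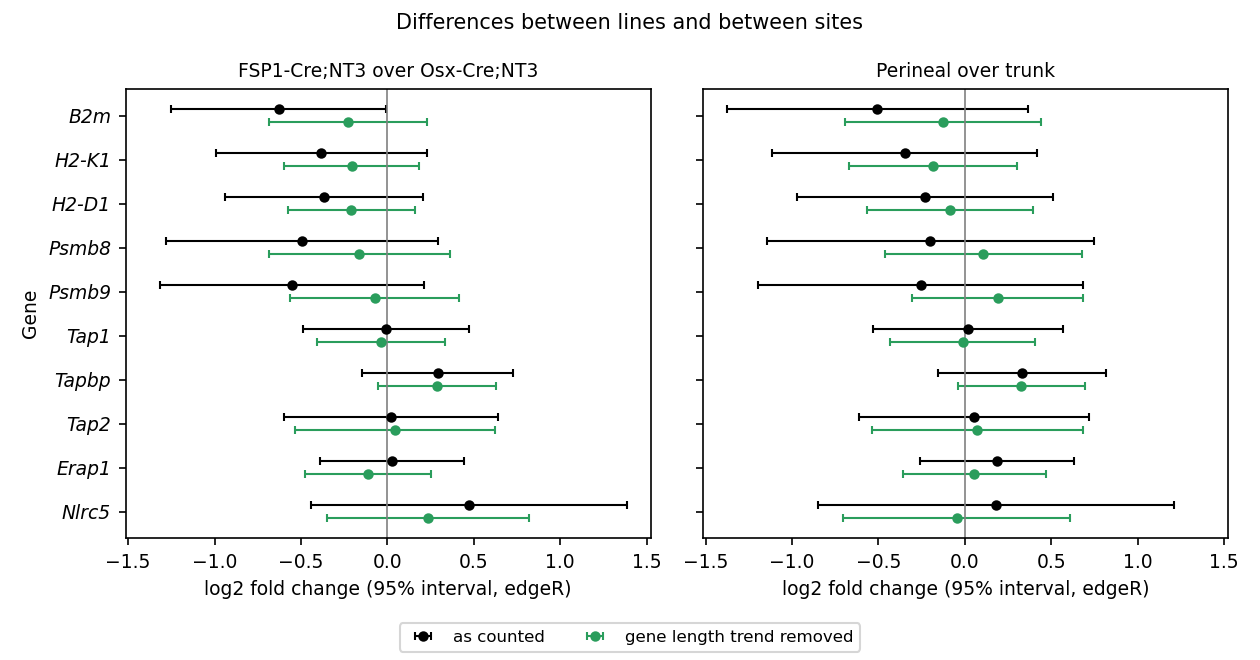
Log2 fold change of each gene between lines (left, FSP1-Cre;NT3 over Osx-Cre;NT3) and between sites (right, perineal over trunk), with 95% intervals from edgeR, as counted (black) and with the gene length trend removed (green). As counted, the interval of B2m between lines runs from -1.25 to -0.01, and all other intervals include 0.

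Between the sites, 4 trunk tumors were set against the 2 perineal tumors. Again none of the 10 genes changed by edgeR at an adjusted p under 0.05, against 0% of all genes, and 0 of 10 reached an unadjusted p under 0.05, against 10.2%. DESeq2 called 561 genes, 3.57%, and 0 of the 10. Without tumor 36 DESeq2 called 14 genes, and without tumor 27 edgeR called 415, with 0 of the 10 in both. The sites did not overlap for 2 of the 10 genes, against 19.6% of all genes, and both were higher in perineal tumors, against 9.98% of all genes higher and 9.57% lower. For Tapbp, perineal tumors stood at 243 and 247 CPM and trunk tumors at 169 to 212 CPM, with a log2 fold change of 0.33 ± 0.21 (SE, adjusted p = 0.58, edgeR with Benjamini-Hochberg adjustment). For Erap1 they stood at 111 and 115 CPM, just above the 88.96 to 109 CPM of trunk tumors, with 0.18 ± 0.19 (SE) and an adjusted p of 0.72 in edgeR. With the length trend removed these values were 0.33 for Tapbp and 0.055 for Erap1, and the other 8 genes lay between -0.19 for H2-K1 and 0.19 for Psmb9.

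The median log2 fold change of the 10 genes between sites was -0.09, beside -0.02 for all genes, with 5 genes above and 5 below 0, and 0.021 with the length trend removed. Within FSP1-Cre;NT3 tumors, where tumors 27 and 36 face tumor 29, the fit with line as a covariate gave 0.44 ± 0.53 for Psmb8 and 0.42 ± 0.51 for Psmb9, where the fit without it gave -0.20 ± 0.40 and -0.26 ± 0.40 (SE). Among trunk tumors alone, where tumor 29 faces 3 Osx-Cre;NT3 tumors, the fit with site as a covariate gave -0.61 ± 0.44 for B2m and 0.65 ± 0.56 for Nlrc5 (SE), and 0 of the 10 passed in either fit. A group of 1 tumor was assumed there to vary like the others.

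The other genes of the pathway were described from 8 lists, of which 79 genes were tested, 0 passed the threshold in either comparison by edgeR, and 10 between lines and 9 between sites had an unadjusted p under 0.05 (12.7% and 11.4%, against 10.8% and 10.2% of all genes). Of 18 tested H2 heavy chain genes outside the classical pair, 8 had log2 fold changes above 0 and 10 below between lines, with a median of -0.06. With the length trend removed the median was 0.18, and 6 of the 18 were below 0. The most abundant of them by RPKM was H2-M2, a nonclassical heavy chain gene, at 157 RPKM on average. It stood at 395, 420.1 and 369 CPM in tumors 13, 18 and 25 and at 227, 258 and 140.0 CPM in tumors 27, 29 and 36. Neither its lines nor its sites overlapped. Between lines the log2 fold change was -0.92 (unadjusted p = 0.011, adjusted p = 0.46, edgeR with Benjamini-Hochberg adjustment), and -0.75 with the length trend removed, and it was -0.98 between sites (unadjusted p = 0.018 in edgeR). H2-Q2 had the largest difference of this list in both comparisons, 2.57 between lines and 3.16 between sites on the log2 scale, and rested on tumor 36, with 14.6 CPM there and 0.479 to 1.60 CPM in the other 5.

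All 14 constitutive core genes of the proteasome had log2 fold changes below 0 between lines, with a median of -0.72, and -0.30 with the length trend removed. As counted, 4 of the 14 had an unadjusted p under 0.05 in edgeR, against 10.8% of all genes. Their median length was 983 bases, within the shortest class of all tested genes, and this count was not made with the trend removed. Psma6 was the most abundant at 298 RPKM, and Psmb7 had the largest difference between lines at -0.88. Of the other inducible proteasome genes, all 4 were below 0, with a median of -0.59, and -0.13 with the trend removed. Psme2, a subunit of the PA28 activator, was both the most abundant at 329 RPKM and the most different at -0.90 (unadjusted p = 0.036, adjusted p = 0.46, edgeR with Benjamini-Hochberg adjustment). It stood at 609.8, 704 and 282 CPM in tumors 13, 18 and 25 and at 282, 279.7 and 293 CPM in tumors 27, 29 and 36, so that tumor 25 again fell among the FSP1-Cre;NT3 tumors.

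Among 6 chaperones of class I folding the median between lines was -0.06, with 2 above 0 and 4 below. Calr, the lectin chaperone calreticulin, was the most abundant at 319 RPKM with 0.01, Pdia3 had the largest difference between lines at -0.29 and Uggt1 between sites at 0.40. Among 7 other peptidases the median was -0.08, with 2 above 0 and 5 below, Blmh was the most abundant at 34.5 RPKM and Lnpep the most different at 0.71 between lines and 1.14 between sites. Of 5 tested class I-like genes outside H2, 3 were above 0 and 2 below with a median of 0.43. Fcgrt, the neonatal Fc receptor, was the most abundant at 21.5 RPKM, and Azgp1 the most different at -1.75.

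Of 19 genes of interferon-gamma signaling and class I promoter factors, 10 were above 0 and 9 below between lines, with a median of 0.01, and -0.03 with the length trend removed. Ifngr2, a receptor chain, was the most abundant at 87.3 RPKM. Ciita, the transactivator of class II genes and a relative of Nlrc5, had the largest difference, and stood at 9.61, 17.7 and 16.3 CPM in tumors 13, 18 and 25 and at 53.9, 22.7 and 51.6 CPM in tumors 27, 29 and 36. Neither its lines nor its sites overlapped, with log2 fold changes of 1.55 between lines and 1.67 between sites (adjusted p = 0.44 for lines, edgeR with Benjamini-Hochberg adjustment). Ifng, named here outside the rule for naming genes, lay between 0.359 and 1.82 CPM, with tumor 18 highest.

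Of 6 genes of NF-κB and NIK, 3 were above 0 and 3 below between lines, with a median of -0.03. Nfkb2, which encodes the p100 precursor that NIK signaling cuts to p52, was the most abundant at 100.6 RPKM. It stood at 432, 308 and 583 CPM in tumors 13, 18 and 25 and at 471, 483 and 190.4 CPM in tumors 27, 29 and 36, with tumor 36 lowest. Relb, the partner of p52, had the largest difference between sites at -0.58, and Rel between lines at 0.45. Tumor 36 had the lowest Relb at 85.3 CPM, beside 195 to 229.5 CPM in the other 5.

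The mean of the centred log2 CPM of the 10 genes was highest in tumor 13 at 0.13, followed by tumor 18 at 0.11, tumor 27 at 0.036, tumor 25 at -0.029, tumor 36 at -0.0999 and tumor 29 at -0.14. With the length trend removed the order was another, with tumor 27 highest at 0.084, then tumor 25 at 0.055, tumor 13 at 0.020, tumor 18 at -0.010, tumor 36 at -0.046 and tumor 29 at -0.12. Among 10211 genes of at least 10 CPM outside all lists, the 5 with a profile most similar to the mean as counted, by Pearson r over 6 tumors, were Nkx2-3 (0.98), Scfd2 (0.97), Ppfia4 (0.96), Haus2 (0.96) and Ifrd1 (0.96), and 43 genes exceeded 0.9. How many would do so by chance was not tested, and the search was not repeated with the length trend removed.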

How the data were processed

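RNA-seq gene tables of 6 tumors, 3 per line, were used. The authors deposited counts per gene without normalization and RPKM values. The study's methods name HISAT2 and featureCounts on mm10, whereas the submitters' processing notes list TopHat2 2.0.6, HTSeq and bcl2fastq. The gene annotation and strand setting are not given in the sources used here. Every deposited count is even. The members and gene lists were chosen with earlier results of these data known. Counts were filtered with filterByExpr, scaled by TMM and tested with glmQLFit and glmQLFTest of edgeR 4.0.16 in R 4.3.3, with Benjamini-Hochberg adjustment over 16415 genes and a threshold of 0.05. DESeq2 1.42.0, other scalings, filters and covariates and each tumor left out were alternatives. Log2 CPM used a prior count of 2. Length trends were removed as lowess offsets (span 0.3), chosen after the data had been seen. Ratios used SciPy 1.17.1. Nothing pairs tumors, and 1 tumor per mouse was the replicate. Tests were tried on simulated data. Of genes changed 4-fold between lines, edgeR called 27% without and 17.5% with a simulated length trend. Between sites it called 28% and 6.5%, and in these runs it called 0 to 4 unchanged genes. DESeq2 called 63.5% to 68.5% of the changed genes and also 66 to 77 unchanged genes. Of 146 listed genes 143 were found, 2 under an older symbol. The text names the members and, of each pathway list, genes past the threshold, the most abundant gene and those of largest fold change, with the marker sums and the 5 genes of most similar profile. Shared 50-base windows were counted in GENCODE M21 transcripts. Benign tissues were not analysed here.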

Additional observations from a re-analysis of the deposited data

Results flagged for a closer look

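Among 26 sets of values examined for a tumor that stands apart, those of the 10 genes and the 3 proteasome ratios over all 6 tumors and over the 4 trunk tumors, 1 did so by Dixon's criterion, where chance flags about 1 in 20. The log2 ratio of Psmb10 over Psmb7 was -1.54 in the FSP1-Cre;NT3 trunk tumor 29, and the nearest of the 3 Osx-Cre;NT3 trunk tumors was at -1.61. The gap was 0.926 of the range of the 4 values. With the gene length trend removed, tumor 29 was at -1.56, inside the range of -1.70 to -1.48 of those 3 Osx-Cre;NT3 tumors.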

How the results depend on the processing

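No paired analysis was possible because the tumors of both lines share no replicate number. None of the 10 genes passed the threshold under any alternative run. Of 110 single-gene values per comparison, from DESeq2, other scalings, the covariate, the length trend and 1 tumor left out, 12 between lines and 17 between sites changed sign, and 7 and 4 of the 10 genes did not. Filters, halved counts and DESeq2 without tumor 36 were run beside these, and between lines Tap1 turned to 0.013 where 10 counts were required in all 6 tumors, 0.00067 with halved counts and 0.072 with DESeq2 without tumor 36, which gave -0.063 for Erap1. Between lines DESeq2 called 420 genes (352 higher, 68 lower), and 196 without tumor 36, an alternative added later, where edgeR called 0 under every setting. Between sites DESeq2 called 561, and 14 without tumor 36, and edgeR called from 0 to 415 genes with 1 tumor left out, 415 without tumor 27, 2 without tumor 25 and 0 otherwise, a lone perineal tumor being assumed to vary like the others. The median of the 10 genes between lines, -0.19, was -0.067 with library sizes alone, which moved the median of all genes from 0.01 to 0.13, and -0.092 with the length trend removed, and ran from -0.29 (without tumor 25) to -0.15 with 1 tumor left out. Between sites it was -0.09, and turned to 0.089 with line as a covariate, 0.011 with library sizes alone and 0.021 with the length trend removed, and ran from -0.23 (without tumor 27) to -0.036 with 1 tumor left out. The log2 differences of the proteasome ratios ran from 0.041 to 0.27 for Psmb8, 0.10 to 0.39 for Psmb9 and 0.30 (without tumor 36) to 0.81 for Psmb10 with 1 tumor left out, all above 0, and were 0.030, 0.32 and 0.47 with the length trend removed.

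Signs changed between lines for Tap1 with library sizes alone (0.11) and upper-quartile scaling (0.032), for Tap2 with site as a covariate (-0.026), and for Erap1 with that covariate (-0.21) and the length trend removed (-0.11). With 1 tumor left out, Tap1 ran from -0.15 to 0.091, Tap2 from -0.19 to 0.13 and Erap1 from -0.044 to 0.11. Between sites, line as a covariate gave 0.11 for H2-D1, 0.44 for Psmb8, 0.42 for Psmb9 and -0.28 for Nlrc5, and the length trend removed gave -0.013 for Tap1, 0.11 for Psmb8, 0.19 for Psmb9 and -0.047 for Nlrc5. With 1 tumor left out, Tap1 ran from -0.24 to 0.22, Tap2 from -0.23 to 0.28, Psmb8 from -0.40 to 0.074, Psmb9 from -0.47 to 0.054 and Nlrc5 from -0.34 to 0.56. The cause of these changes was not tested.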
